A study of Mus musculus with 6 samples.

Results

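Respiratory chain subunits were examined in mouse spleen as a set of 81 nuclear-encoded genes out of 18193 genes measured. Members were the genes whose symbol begins with Nduf followed by a, b, c, s or v and a digit, the Sdh genes Sdha to Sdhd, and symbols beginning with Uqcr, with Cox followed by a digit from 4 to 8, or with Atp5. They were represented by 164 of 45037 probe sets, a probe set being the group of short array probes designed for a transcript, and each gene was read at its probe set with the highest mean over the 6 samples. Spleens came from adult F1 females of 2 crosses with the shared inbred parent FVB/NJ: 3 samples of (AKR/J x FVB/NJ)F1, called AKR F1, and 3 of (DBA/2J x FVB/NJ)F1, called DBA F1. All 6 samples therefore held a genome copy from FVB/NJ beside the copy from AKR/J or DBA/2J, the labels name no treatment beyond Avertin anaesthesia at collection, and each sample was hybridised to an Affymetrix array. The labels do not say whether the 3 samples of a group came from separate animals, and p-values then measure only the spread between these samples, which may be technical. Values are deposited log2 signals, and every difference is AKR F1 minus DBA F1, so a negative value is higher in DBA F1.

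The respiratory chain of the inner mitochondrial membrane passes electrons from NADH (complex I, the Nduf genes) and from succinate (complex II, the Sdh genes) to complex III (the Uqcr genes), and from there through cytochrome c to oxygen at complex IV (the Cox genes). Complexes I, III and IV move protons across the membrane, and complex V, the ATP synthase encoded by the Atp5 genes, uses their return to make ATP. In the spleen, red cell precursors carry mitochondria that are cleared as the cells mature, while lymphocytes keep theirs. Some complex IV subunits exist as isoforms made mainly in muscle, lung or testis, and these were set apart from the common subunits. Also set apart were Ndufa4l2, a paralog of Ndufa4, and Cox7a2l, a factor that joins complexes III and IV.

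The common subunits differed little between the crosses. Of the 81 members, 3 passed an adjusted p of 0.05 in limma (3.70%), against 17.2% of all genes. Of these, 1 was higher in AKR F1 (8.91% of all genes were called in that direction) and 2 in DBA F1 (8.31% of all genes). Both members higher in DBA F1, Cox6b2 and Cox8c, encode complex IV isoforms known from testis, and the member higher in AKR F1 was Cox7c, a common complex IV subunit. The 95% interval of the difference lay within 1.5-fold in either direction for 77 members (95.1%), against 81.0% of all genes. At an unadjusted p under 0.05 stood 8 members, against 36.2% of all genes. The samples of the crosses did not overlap for 17 members, 7 with AKR F1 above and 10 with DBA F1 above, where 41.2% of all genes did not overlap (22.0% and 19.2% in those directions). Complexes I to V had 34, 4, 8, 9 and 17 common genes, 72 in all, and 9 genes were set apart. Calls among the members moved with single samples, as did those of all genes. Without replicate 1 of DBA F1, 8 of 81 members were higher in DBA F1, and 1635 of all 18193 genes were. Without any other sample 1 or 2 members were, and 313 to 578 of all genes.

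**Figure D1:**
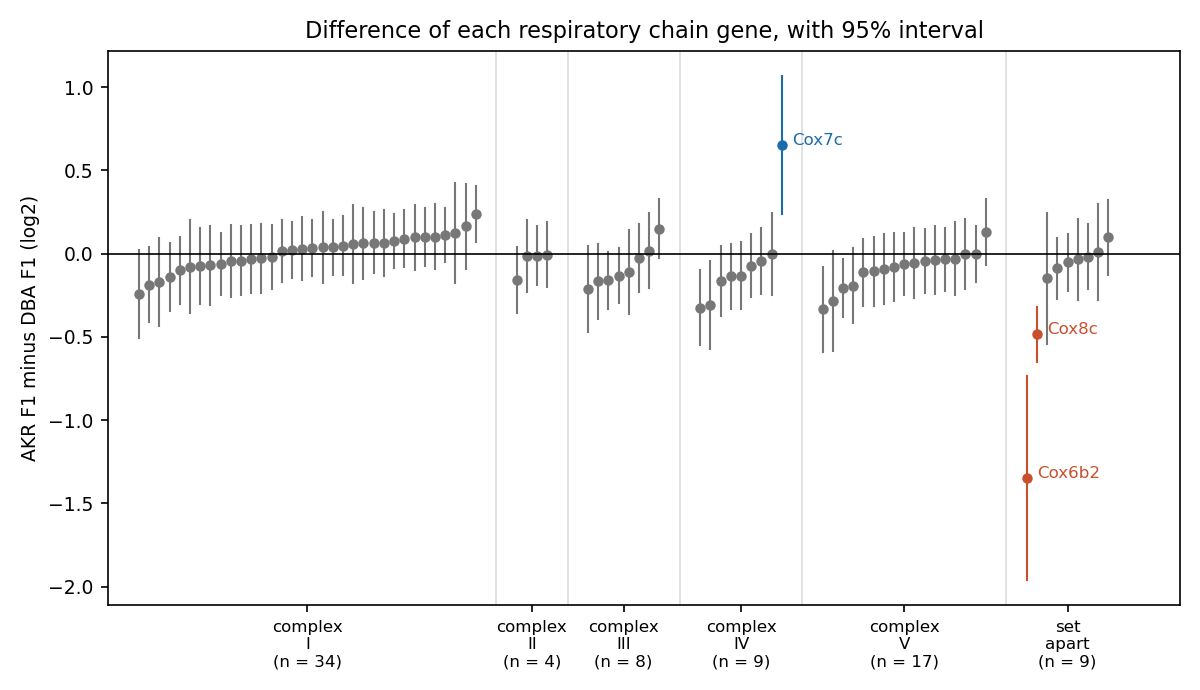
Difference between the crosses (AKR F1 minus DBA F1, log2) for each of the 81 genes, ordered by size within each complex. Points are limma estimates from 3 samples per cross, bars their 95% intervals, and colour marks the 3 genes past an adjusted p of 0.05 (blue higher in AKR F1, red higher in DBA F1); nearly all others lie close to 0.

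Cox6b2 had the largest difference among the members. The 250 bases before the start of the gene are shown for Cox6b2 and for its common counterpart Cox6b1. Those of Cox6a1, another common complex IV gene, are added as an example that holds every motif searched. Sequences are from RefSeq on build GRCm38.p6, on the strand of the gene: Cox6b2 chr7:4753095-4753344 (minus strand), Cox6b1 chr7:30626115-30626364 (minus strand) and Cox6a1 chr5:115348959-115349208 (minus strand). Capitals mark exact matches, on either strand, to GCATGCGC (the core of the site of NRF1, a transcription factor of many mitochondrial genes), CCGGAAG (the site of ETS factors such as GABP) and CCAAT (the site of NF-Y).
Cox6b2: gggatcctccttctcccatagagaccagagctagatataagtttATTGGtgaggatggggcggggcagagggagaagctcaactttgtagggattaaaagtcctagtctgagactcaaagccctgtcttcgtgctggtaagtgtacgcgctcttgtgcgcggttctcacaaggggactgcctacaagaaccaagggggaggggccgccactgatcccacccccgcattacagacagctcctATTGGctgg
Cox6b1: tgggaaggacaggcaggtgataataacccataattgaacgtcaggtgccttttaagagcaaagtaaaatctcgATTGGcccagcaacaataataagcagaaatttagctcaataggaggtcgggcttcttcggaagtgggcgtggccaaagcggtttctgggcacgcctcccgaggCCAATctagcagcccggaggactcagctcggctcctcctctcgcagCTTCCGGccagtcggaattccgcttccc
Cox6a1: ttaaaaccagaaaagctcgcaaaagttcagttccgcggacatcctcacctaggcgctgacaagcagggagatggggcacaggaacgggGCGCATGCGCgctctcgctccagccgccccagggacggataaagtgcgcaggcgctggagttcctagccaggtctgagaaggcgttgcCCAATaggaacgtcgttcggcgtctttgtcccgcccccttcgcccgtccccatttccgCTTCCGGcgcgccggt

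In Cox6b2 the matches were CCAAT boxes on the reverse strand that begin 206 and 9 bases before the start. Cox6b1 held CCAAT boxes beginning 177 and 74 bases before the start and an ETS match at 28 bases. In Cox6a1 an NRF1 core was present on both strands of an overlapping palindrome (beginning at 162 and 160 bases), with a CCAAT box at 74 bases and an ETS match at 16 bases. Windows were listed for 66 of the 81 members. The NRF1 core was present in 7 of 66 members (10.6%) and in 3.96% of 14452 genes on the array with a window of the same length. The ETS site was present in 12 members (18.2%) and in 11.8% of genes, and CCAAT in 28 members (42.4%) and 39.4% of genes. These are matches of letters only, and the files hold no measurement of factor binding.

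Among the genes set apart, Cox6b2, the form of subunit VIb made mainly in testis, was 2.54-fold higher in DBA F1. It stood at 6.85, 7.18 and 6.69 in AKR F1 and at 7.58, 8.55 and 8.63 in DBA F1 (replicates 1 to 3). The crosses did not overlap, and replicate 1 of DBA F1 lay between the others of its cross and AKR F1. The difference was -1.35 ± 0.27 (SE, n = 3 per cross; adjusted p = 0.0189 in limma). Its call was lost without replicate 1 (adjusted p = 0.0675) or 3 (0.0644) of AKR F1 and without replicate 2 (0.0658) or 3 (0.0503) of DBA F1. The common counterpart Cox6b1, whose product sits between the monomers of the complex IV dimer, stood at 11.24, 11.22 and 11.22 in AKR F1 and 11.26, 11.33 and 11.50 in DBA F1. Its difference was -0.14 ± 0.08 (adjusted p = 0.276), with the DBA F1 samples all above those of AKR F1 by a small margin. Within each sample, Cox6b2 minus Cox6b1 was -4.39, -4.04 and -4.53 in AKR F1 and -3.68, -2.78 and -2.87 in DBA F1, again without overlap.

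Genes of red cell precursors and of dividing cells moved with Cox6b2. Of 14 erythroid genes, 13 were called higher in DBA F1 in limma (8.31% of all genes were), and all 14 differences were negative. Their mean level ran from 8.12 to 8.82 in AKR F1 and from 9.71 to 10.53 in DBA F1, where replicate 1 was lowest. Of 14 genes of dividing cells 10 were called higher in DBA F1, and all 14 differences were negative. Their mean level was 7.64 to 8.19 in AKR F1 and 8.50 to 9.42 in DBA F1. The part of both lists in the Cox6b2 result was not tested. In whole spleen a change in the number of a cell type and one in RNA per cell cannot be told apart. Of 8 genes of spermatogenic cells 0 passed in limma (2 at an unadjusted p under 0.05), 5 lay below 4 in every sample, and the protamine gene Prm1 ran from 5.84 to 5.95 and from 5.88 to 5.97. The mean level of these 8 genes was 3.54 to 3.56 in AKR F1 and 3.63 to 3.77 in DBA F1, without overlap, and its part was not tested.

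Cox8c, the form of subunit VIII known from testis, stood at 6.87, 6.98 and 6.93 in AKR F1 and 7.38, 7.43 and 7.42 in DBA F1. The replicates of each cross lay close together and the crosses did not overlap. The difference was -0.48 ± 0.07 (adjusted p = 0.00916 in limma), or 1.40-fold, and its adjusted p ran from 0.00891 to 0.0412 when any 1 sample was left out. A second Cox8c probe set went the other way, with 5.50, 5.72 and 5.66 in AKR F1 and 5.60, 5.75 and 5.29 in DBA F1, and did not pass (0.08 ± 0.13, adjusted p = 0.702 over probe sets). With the mean of both probe sets the Cox8c call was lost (-0.20, adjusted p = 0.133). Cox8a, the common subunit VIII, differed by -0.13 ± 0.09 (adjusted p = 0.308).

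The muscle, heart and lung forms did not pass. Cox6a2, the heart and muscle form of subunit VIa, stood at 6.61, 6.41 and 6.46 in AKR F1 and 6.72, 6.38 and 6.49 in DBA F1, with overlap (-0.03, 95% interval -0.28 to 0.21). Cox4i2, the lung form of subunit IV, ran from 4.43 to 4.79 and from 4.46 to 4.81 (interval of the difference -0.28 to 0.30). Cox8b, a heart and muscle form, ran from 4.51 to 5.21 and from 4.84 to 5.06. Cox7a1, the heart and muscle form of subunit VIIa, lay between 2.90 and 3.10 in all samples and Cox7b2, a testis form, between 2.44 and 2.78. These last are below the lower quartile of all probe sets, which was 3.36 to 3.48 over the arrays. Of 15 striated muscle genes 1 was called higher in AKR F1 and 1 in DBA F1, and their mean level was 3.93 to 4.01 over all samples. Ndufa4l2, a paralog of Ndufa4 induced by low oxygen, differed by -0.09 (adjusted p = 0.453) and Cox7a2l, a factor that joins complexes III and IV into supercomplexes, by -0.05 (adjusted p = 0.635).

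**Figure D2:**
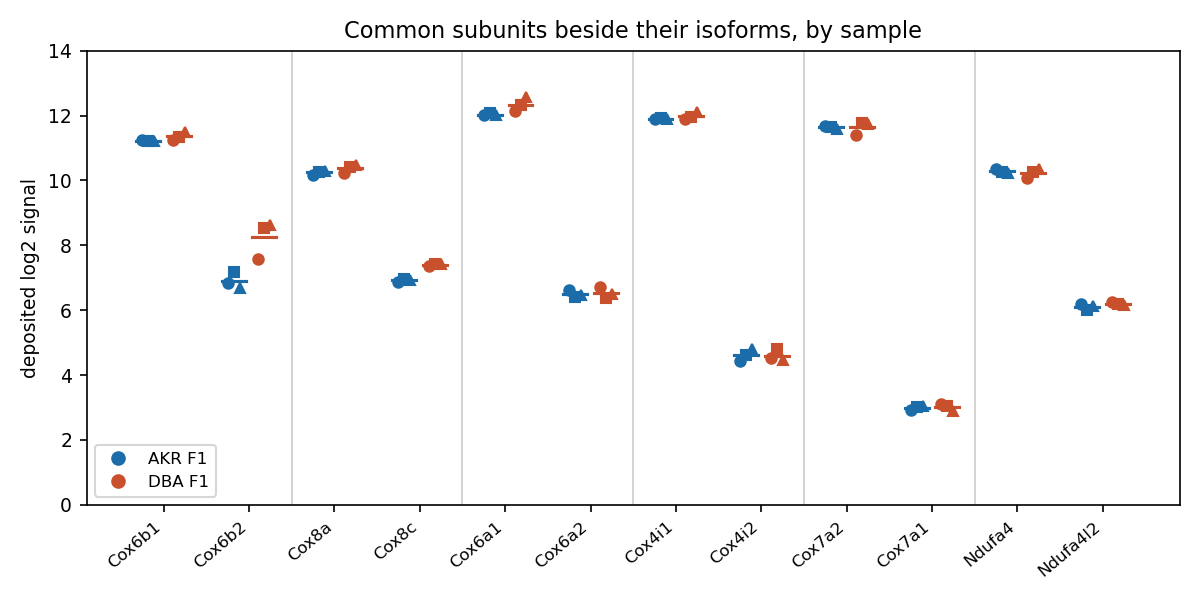
Deposited log2 signal of common subunits (left of each pair) and their isoforms (right), with 1 point per sample (circle, square and triangle for replicates 1, 2 and 3) and a bar at the mean of each cross. Cox6b2 and Cox8c separate the crosses, and so do the common subunits Cox6b1 and Cox6a1, by smaller margins. The other genes shown overlap. Signals of different probe sets are not on a common scale of amount.

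Complex I, the entry point of electrons from NADH, had 34 common genes, of which 0 passed in limma and 1 had an unadjusted p under 0.05. The median difference was 0.03, with 20 values positive and 14 negative, and it was -0.03 after quantile normalization and -0.01 without replicate 1 of DBA F1, so no direction can be given. All 34 intervals lay within 1.5-fold. Ndufa3, an accessory subunit, had the smallest p. It stood at 11.14, 11.16 and 11.09 in AKR F1 and 10.94, 10.82 and 10.92 in DBA F1, without overlap (0.24 ± 0.07, adjusted p = 0.0603). Its other probe sets differed by 0.29 and 0.21 in the same direction and did not pass when adjusted over all probe sets (adjusted p = 0.0546 and 0.227). Ndufa3 passed with each array centred on its median (0.27, adjusted p = 0.0444), with dim genes left out (0.0417), with a trended and robust variance (0.0332) and with array weights (0.0318). It also passed when read at the probe set with a difference of 0.29 and adjusted over genes (0.0397).

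In all samples AKR F1 also lay above DBA F1, with small differences, for the accessory subunit genes Ndufb2 (0.17), Ndufa6 (0.11), Ndufb3 (0.10) and Ndufv3 (0.08). With Ndufa3 these were 5 of the 34 complex I genes (14.7%), where 22.0% of all genes had AKR F1 above. Both other probe sets of Ndufb2 differed by -0.02, with overlap. The nuclear-encoded core subunits, among them the carriers of the flavin and the iron-sulphur clusters, were Ndufs1, Ndufs3, Ndufs7, Ndufs8, Ndufv1 and Ndufv2, and their differences ran from -0.17 to 0.07. Ndufv1, which binds NADH and the flavin, stood at 9.27, 9.39 and 9.37 in AKR F1 and 9.26, 9.62 and 9.66 in DBA F1. Ndufb9, an accessory subunit of the membrane arm, stood at 10.20, 10.23 and 10.14 and at 10.20, 10.44 and 10.65. For both, replicate 1 of DBA F1 lay with AKR F1. Both passed without that sample (Ndufv1 at -0.30, adjusted p = 0.0448, and Ndufb9 at -0.36, adjusted p = 0.0383). With all samples, both other probe sets of Ndufv1 differed by -0.04 and those of Ndufb9 by -0.11 and 0.16, all with overlap. Ndufa1, an accessory subunit of the membrane arm, overlapped between crosses (11.26, 11.13 and 11.20 against 11.05, 11.15 and 11.11). Ndufa4, named for complex I and now assigned to complex IV, differed by 0.06 (adjusted p = 0.649). Ndufb4 ran from 3.02 to 3.51 in AKR F1 and from 3.02 to 3.21 in DBA F1, around the lower quartile of the arrays.

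Complex II, succinate dehydrogenase, also works in the citric acid cycle, and its 4 genes gave 0 calls in limma and 0 at an unadjusted p under 0.05. The flavoprotein gene Sdha stood at 10.22, 10.43 and 10.32 in AKR F1 and 10.25, 10.37 and 10.37 in DBA F1. Sdhb, the iron-sulphur subunit, stood at 10.38, 10.30 and 10.36 and at 10.29, 10.34 and 10.44. The crosses overlapped at both, with differences of -0.01 each and 95% intervals of -0.20 to 0.19 and -0.19 to 0.16. The membrane anchors Sdhc and Sdhd differed by -0.02 and -0.16 (adjusted p = 0.917 and 0.225).

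Complex III, the cytochrome bc1 complex, gave 0 calls among 8 genes in limma and 0 at an unadjusted p under 0.05, with a median difference of -0.12 (-0.08 without replicate 3 of DBA F1). Uqcrh, the hinge protein that contacts cytochrome c1, stood at 11.03, 11.04 and 11.03 in AKR F1 and 11.15, 11.14 and 11.28 in DBA F1, without overlap (-0.16 ± 0.07, adjusted p = 0.164). Its other probe set differed by 0.10. Uqcrb, which helps to hold the ubiquinone site, lay the other way, at 12.57, 12.64 and 12.54 and at 12.38, 12.40 and 12.52 (0.15 ± 0.08, adjusted p = 0.196). Uqcrc1, a core protein, differed by -0.21 and the Rieske iron-sulphur subunit Uqcrfs1 by -0.17, both with overlap.

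In complex IV, cytochrome c oxidase, 7 of 9 common genes were lower in AKR F1 by their values and the median was -0.13 (-0.07 without replicate 3 of DBA F1), while 1 gene passed, in the other direction. Cox7c, a small subunit of the membrane part, stood at 6.94, 6.74 and 6.32 in AKR F1 and 5.72, 6.07 and 6.24 in DBA F1. Replicate 3 of each cross lay close to the other cross, without overlap. Its difference was 0.65 ± 0.18 (adjusted p = 0.0434 in limma), or 1.57-fold. The call held without replicate 3 of AKR F1 (adjusted p = 0.0434) and was lost without any other 1 sample (0.0551 to 0.128). Cox7c was also lost after quantile normalization (0.0696) and over probe sets (0.0537). A second Cox7c probe set differed by 0.71 (adjusted p = 0.0918 over probe sets), at means of 5.35 in AKR F1 and 4.64 in DBA F1. Both Cox7c probe sets gave a low signal beside the other common genes of complex IV. The lowest of those was Cox8a, with means of 10.25 in AKR F1 and 10.38 in DBA F1.

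Cox5b, a zinc-binding subunit, stood at 11.28, 11.30 and 11.30 in AKR F1 and 11.44, 11.63 and 11.79 in DBA F1, without overlap (-0.32 ± 0.10, adjusted p = 0.0573). All 6 of its probe sets had negative differences, from -0.06 to -0.32. Cox6a1, the common form of subunit VIa, stood at 12.01, 12.08 and 12.00 and at 12.13, 12.31 and 12.57, also without overlap (-0.31 ± 0.11, adjusted p = 0.0947). Neither passed as reported. Cox5b passed with dim genes left out (adjusted p = 0.0485), with a trended and robust variance (0.0314) and with array weights (0.0234), and Cox6a1 with array weights (0.0471). Both passed without replicate 1 of DBA F1 (Cox5b -0.41, adjusted p = 0.0193; Cox6a1 -0.41, adjusted p = 0.0325). Cox4i1 (-0.07, 95% interval -0.26 to 0.12), Cox5a (-0.04, -0.24 to 0.16) and Cox7a2 (0.00, -0.25 to 0.25) overlapped between the crosses.

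Complex V gave 0 calls among 17 genes in limma and 2 at an unadjusted p under 0.05, with 16 of 17 differences negative and a median of -0.06. That median was -0.01 without replicate 3 of DBA F1 and -0.13 without replicate 1. The catalytic beta subunit Atp5b stood at 11.58, 11.75 and 11.61 in AKR F1 and 11.79, 11.97 and 12.18 in DBA F1. The crosses did not overlap, and the difference was -0.33 ± 0.11 (adjusted p = 0.0717, with 0.0409 under a trended and robust variance and 0.0394 with array weights). The alpha subunit Atp5a1 stood at 11.50, 11.54 and 11.52 and at 11.58, 11.65 and 11.91 (-0.19 ± 0.10, adjusted p = 0.195), and the delta subunit Atp5d at 11.23, 11.18 and 11.21 and at 11.34, 11.40 and 11.50 (-0.21 ± 0.08, adjusted p = 0.0902). In both, the samples of DBA F1 lay above those of AKR F1. The other probe sets of Atp5a1 differed by -0.02 with overlap and by 0.32 with AKR F1 above (adjusted p = 0.922 and 0.0723 over probe sets), so they did not share a direction. Atp5e, another subunit of the central stalk, overlapped between the crosses (95% interval of the difference -0.17 to 0.17).

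The ring that turns in the membrane is built from a single mature protein encoded by Atp5g1, Atp5g2 and Atp5g3. Atp5g1 stood at 9.32, 9.32 and 9.15 in AKR F1 and 9.25, 9.68 and 9.71 in DBA F1 (-0.28 ± 0.13, adjusted p = 0.157). Atp5g2 and Atp5g3 differed by -0.04 and -0.03, with 95% intervals of -0.24 to 0.15 and -0.22 to 0.16. Without replicate 1 of DBA F1 both Atp5b (-0.43, adjusted p = 0.0293) and Atp5g1 (-0.43, adjusted p = 0.0194) passed, and Atp5g1 also passed with array weights (0.0499). The peripheral stalk genes Atp5h, Atp5j, Atp5o and Atp5pb ran from -0.08 to 0.13, and Atp5j, coupling factor 6, was the 1 positive value of complex V. The small membrane subunits Atp5j2, Atp5k, Atp5l, Atp5md and Atp5mpl ran from -0.11 to -0.04.

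At the common subunits the samples of DBA F1 differed among themselves more than those of AKR F1. The SD was larger in DBA F1 for 63 of the 72 common genes, and replicate 1 was the lowest of its cross for 63. Replicate 3 of DBA F1 was the highest of all 6 samples for 42 common genes, 14 of the 17 of complex V among them. Shares over all genes were not counted, so none of these counts is shown to be particular to the chain. Median deviations from the 6-sample mean over the common genes were -0.04, -0.00 and -0.03 in AKR F1 and -0.10, 0.05 and 0.12 in DBA F1. For complex V alone they were -0.06, -0.02 and -0.04 and then -0.10, 0.05 and 0.14. The order of the DBA F1 samples was the same for mitochondrial ribosomal proteins (-0.10, 0.04 and 0.11), for erythroid genes (0.36, 1.01 and 1.10) and for genes of dividing cells (0.08, 0.82 and 0.98). Pancreatic acinar genes stood at a mean level of 5.93 in replicate 3 of DBA F1 and at 12.91 to 13.66 in the other samples, and the part of these lists was not tested. Without that sample the median difference of the 81 members was 0.00, against -0.04 with it, and 1 member was called, Cox8c. Markers of B cells, abundant lymphocytes of spleen, had a mean level of 10.55 to 10.94. Called higher in AKR F1 were 3 of 7 B cell genes, 8 of 9 T cell genes and 3 of 8 macrophage genes (8.91% of all genes were). Differences were positive for 6, 9 and 6 of these genes. In limma 0 of 12 acinar and 0 of 8 adipocyte genes passed (1 of each at an unadjusted p under 0.05). For all 12 acinar genes the AKR F1 samples nonetheless lay above every DBA F1 sample (22.0% of all genes did), with a median difference of 3.03.

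**Figure D3:**
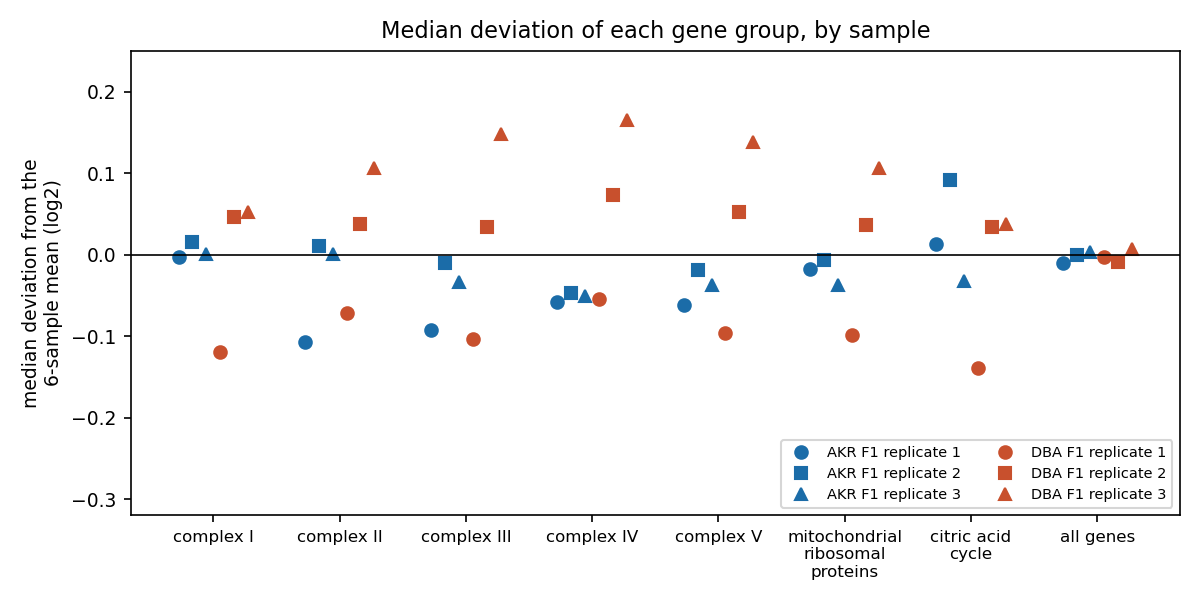
Median deviation of each group of genes from its 6-sample mean (log2), with 1 point per sample. Replicate 1 of DBA F1 (red circle) is the lowest of its cross and replicate 3 (red triangle) the highest in every complex. The AKR F1 samples (blue) lie between -0.11 and 0.02 in complexes I to V and reach 0.09 for the citric acid cycle. All genes together lie near 0.

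Dim probe sets of complexes II and III gave most of the calls among probe sets. Of the 164 probe sets of the members 6 passed when adjusted over all probe sets (3.66%), against 10.4% of all probe sets. All 6 were higher in DBA F1 (5.26% of all probe sets) and 0 in AKR F1 (5.14%), and 4 of the 6 had a mean level under 6. Uqcr10, a small subunit of complex III, stood at 9.71, 9.73 and 9.74 in AKR F1 and 9.84, 9.81 and 9.93 in DBA F1 at its brightest probe set (-0.13 ± 0.08). At its dimmest probe set Uqcr10 stood at 4.03, 3.54 and 3.94 and at 5.94, 6.35 and 6.25 (-2.34 ± 0.15, adjusted p = 0.000306). An intermediate Uqcr10 probe set stood at 5.27, 5.35 and 5.26 and at 5.76, 5.62 and 5.82. The direction was shared by all 3 and the size was not, and with the mean of its probe sets Uqcr10 passed as a gene (-0.97, adjusted p = 0.000925).

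Sdha differed by -0.01 and 0.11 at its bright probe sets. At a dim one it stood at 3.66, 3.88 and 3.81 in AKR F1 and 4.44, 5.41 and 5.48 in DBA F1 (-1.33 ± 0.25, adjusted p = 0.0196). Replicate 1 of DBA F1 was again the lowest of its cross, as for 63 of the 72 common genes, for Cox6b2 and for the erythroid genes. The source of this shared order was not tested. Uqcrq, which encodes another small subunit of complex III, differed by 0.02 at its bright probe set and by -0.50 ± 0.10 at a dim one (adjusted p = 0.0239). Read at that dim probe set, its brightest outside the _x_at and _s_at kinds, whose probes can match other transcripts, Uqcrq passed as a gene (adjusted p = 0.0190). Of the 48 members with several probe sets, 35 had differences within 0.25 of each other, 25 had differences of both signs, 0 were called in both directions, and 2 (Uqcr10 and Sdha) spanned over 1.

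**Figure D4:**
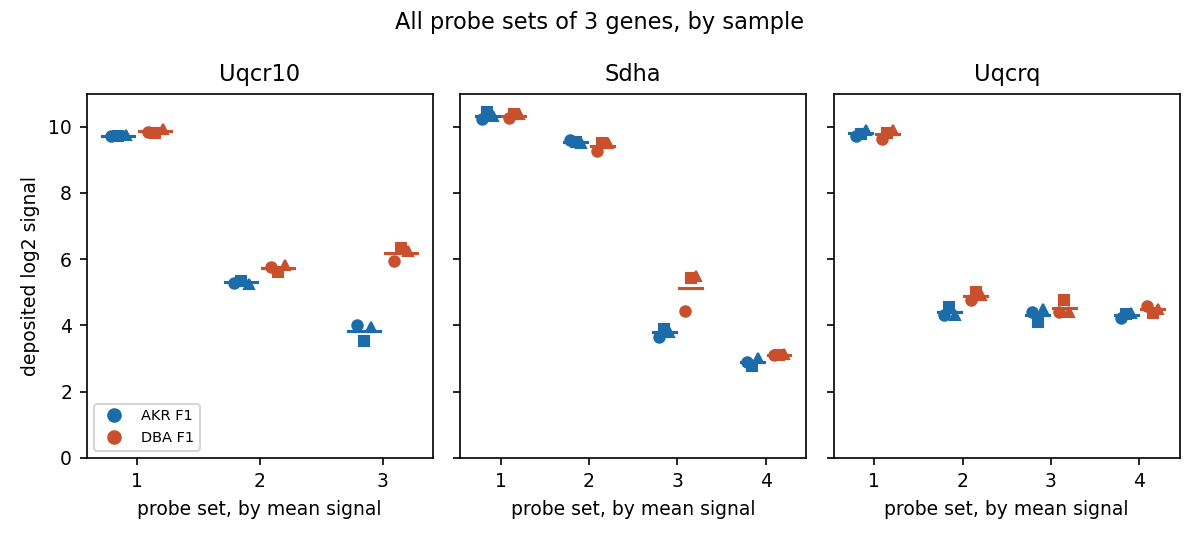
Deposited log2 signal of every probe set of Uqcr10, Sdha and Uqcrq, ordered by mean signal, with 1 point per sample and a bar at the mean of each cross. The bright probe sets differ little between the crosses, while the dimmest Uqcr10 probe set, the third of Sdha and the second of Uqcrq are higher in DBA F1.

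Genes around the respiratory chain were read from lists fixed with earlier results of these data known. Of 4 assembly and inhibitor genes of complex V, 1 was called in each direction. Atpif1, the inhibitor that stops the ATP synthase from running backwards, stood at 9.78, 9.90 and 9.35 in AKR F1 and 10.13, 10.65 and 10.77 in DBA F1, without overlap (-0.84 ± 0.19, adjusted p = 0.0270). Atpaf1, which helps to assemble the F1 head, stood at 6.97, 7.23 and 7.02 and at 6.46, 6.61 and 6.44 (0.57 ± 0.09, adjusted p = 0.0122), so inhibitor and assembly factor differed in opposite directions. The erythroid genes named above move with Atpif1 too, and their part was not tested.

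Of 14 regulators of mitochondrial gene expression, 3 were higher in AKR F1 (21.4%, against 8.91% of all genes) and 0 in DBA F1, with a median of 0.16. T cell genes were also called higher in AKR F1 (8 of 9, mean level 8.65 to 8.78 against 8.21 to 8.29), and their part was not tested. The 3 regulators called were Polg (0.36, adjusted p = 0.0248), Polrmt (0.34, adjusted p = 0.0347) and Tfb2m (0.34, adjusted p = 0.0331). Polg is the polymerase that copies mitochondrial DNA, Polrmt the polymerase that transcribes it, and Tfb2m a factor that helps Polrmt to start. The mitochondrial transcription factor Tfam (0.26, adjusted p = 0.112) and Nrf1 (0.00, adjusted p = 0.995) did not pass. Among 15 assembly genes of complex I, Timmdc1 was higher in AKR F1 (0.59, adjusted p = 0.0329) and Ndufaf1 in DBA F1 (-0.35, adjusted p = 0.0476). In limma, assembly genes of complexes II (4), III (6) and IV (18) gave 0 calls, with 1, 0 and 6 at an unadjusted p under 0.05. Their smallest adjusted p were at Sdhaf3 (0.35, 0.0949), Ttc19 (0.22, 0.197) and Cox19 (-0.24, 0.0761).

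Of 10 other chain subunits and electron carriers, 1 passed, the glycerol phosphate dehydrogenase Gpd2 (0.29, adjusted p = 0.0426). Cyc1, the cytochrome c1 of complex III, stood at 10.29, 10.30 and 10.23 in AKR F1 and 10.35, 10.67 and 10.71 in DBA F1 (-0.30, adjusted p = 0.0827). ND5, a complex I subunit encoded in the mitochondrial genome, ran from 12.39 to 12.62 and from 12.22 to 12.47 (0.13, adjusted p = 0.354). In limma 0 of 15 citric acid cycle genes passed (1 at an unadjusted p under 0.05, Suclg1, 0.21) and 0 of 11 genes of the outer mitochondrial membrane (2 at an unadjusted p under 0.05, with Mfn2 the smallest, 0.24). Of 73 mitochondrial ribosomal proteins 1 passed (1.37%), Mrps9 (0.29, adjusted p = 0.0415). Of 46 cytosolic ribosomal proteins 5 passed (10.9%), 3 higher in AKR F1 and 2 in DBA F1, against 17.2% of all genes. Medians were -0.02 and -0.09, and 37 of the 46 cytosolic differences were negative. All DBA F1 samples lay above for 20 of the 46 and all AKR F1 samples for 6, against 19.2% and 22.0% of all genes. The smallest p among the cytosolic genes was at Rps6 (0.54, adjusted p = 0.0152), 1 of 9 with a positive difference.

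For comparison, between levels of 8.19 and 11.83, the 5th to 95th percentile of the common subunits, 3634 genes had a median difference of 0.11 and 19.8% were called. The 72 common subunits had a median of -0.04 and 1 call. After quantile normalization these medians were 0.04 and -0.09, and with each array centred on its median 0.14 and -0.00.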

How the data were processed

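Spleen RNA of 6 samples was read on Affymetrix arrays. The authors deposited log2 signals, 1 column per sample with array medians of 5.04 to 5.10; the tools MAS5 and RMA are named, per the submitters' processing notes, without roles or versions. Precision is limited by the number of arrays.

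Groups came from sample titles. Of 45101 probe sets 64 controls were left out. Genes were the 18193 symbols of 34945 probe sets with 1 platform symbol; all 81 member symbols matched RefSeq on GRCm38.p6, and 9 probe sets with several symbols were left out. Gene differences came from limma 3.58.1 (lmFit, eBayes; R 4.3.3, statmod 1.5.0) on all 6 samples without covariates, with Benjamini-Hochberg adjustment over all genes, and probe set differences from the same fit over 45037 probe sets. The procedure was tested on simulated data. An exact permutation test of 3 against 3 cannot go below p = 0.1.

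Members and the 20 other lists were chosen with earlier results of these data known and were given no list test. Named genes were the called members, those with the smallest p or the highest signal of a complex, the isoforms, members whose probe sets spanned over 1 log2 unit, and the smallest p of each list; members whose probe sets differed in sign were to be given in full and are given as a count. Other members were chosen as examples after their values were seen. Alternatives were 2 normalizations, a filter, variance models, weights, a replicate block, other probe sets and leaving out each sample.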

Additional observations from a re-analysis of the deposited data

How the results depend on the processing

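The number of members higher in AKR F1 was 1 as reported. It was 2 with array medians centred, with genes under the 40th percentile left out, with a trended and robust variance and with array weights. It was 0 after quantile normalization, with all probe sets of each gene averaged and with adjustment over all probe sets, and 0 to 1 with a sample left out. The number higher in DBA F1 was 2 as reported, 4 with a trended and robust variance, 6 with array weights, and 1 to 8 with a sample left out. With the replicate number as a block 0 were higher in AKR F1 and 2 in DBA F1; deviations of same-numbered samples correlated at 0.17, 0.13 and -0.01 across genes, so the numbers are not taken as pairs, and not every sample correlated best with its own number. The median of the members set apart was -0.05 and -0.10 after quantile normalization. All other medians moved by less than the spread between replicates. The cause of these changes was not tested, except that fewer samples or fewer genes were fitted where these were left out. The count over all genes was 3133, and 1858 after quantile normalization and 650 to 3451 with a sample left out. The share of calls higher in AKR F1 was 51.7%, 62.5% with medians centred, 66.9% with genes under the 40th percentile left out and 41.2% after quantile normalization.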
